A study of Mus musculus with 22 samples.

Results

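The genes described here are regulators of the BCL2 family, which decide whether a cell starts apoptosis through its mitochondria. They were chosen by name: Bcl2, Bcl2l1, Mcl1, Bax, Bak1, Bid, Bad, Bcl2l11, Bbc3 and Pmaip1, 10 genes in all. Of these, 9 had at least 1 probe set assigned to a single gene symbol, and together they held 29 of the 45037 probe sets that were not controls. Bax, a pore-forming member, was not analysed here.

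Family members fall into groups by role. The guards BCL2, BCL-XL (from Bcl2l1) and MCL1 hold the effectors BAX and BAK in check, and once released the effectors permeabilise the outer mitochondrial membrane, so that cytochrome c leaves and caspases are activated. The BH3-only proteins, which carry just the short BH3 segment of the family, report stress: BIM (from Bcl2l11), BID, PUMA (from Bbc3), NOXA (from Pmaip1) and BAD each bind guards, and some also engage the effectors directly.

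RNA was measured on Affymetrix arrays in 3 groups. The antibody-treated group held 3 samples of A2C12 cells, a tumour line from the lung of a C57BL/6 mouse transgenic for both c-myc and c-raf, exposed to a monoclonal antibody against mouse EpCAM, an epithelial cell adhesion protein, at 100 µg/ml for 48 h. The untreated group held 3 samples of the same line without antibody. Both were sorted for the side population, the fraction that pumps out the DNA dye Hoechst, so every cell sample carried the transgenes and all came from 1 line. The comparison tissue was whole lung of C57BL/6 mice without transgenes, 8 labelled male and 8 labelled female. Mouse age, and the promoter that drives the transgenes, are not given in the sources used here.

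The arrays differed in ways that go with the groups. Median intensity lay at 39.3 to 40.0 on antibody-treated, 39.4 to 40.6 on untreated and 47.9 to 54.6 on lung arrays, and the spiked-in dap control read 366 to 577, 551 to 601 and at most 2.72 in the same groups. Gapdh control signal at the 3′ end over that at the 5′ end, a sign of RNA quality given as log2, was −0.12, 0.40 and −0.12 on antibody-treated arrays 1 to 3, −0.13 to 0.07 on untreated and 0.22 to 1.01 on lung arrays. Because cells and lung differ in these controls as well as in origin, a technical difference between the arrays and the difference of sample cannot be told apart. In whole lung, fewer cells of a type and less RNA per cell cannot be told apart either. Summed intensities of the B cell markers were 48.3 to 57.7 in antibody-treated and 43.3 to 68.2 in untreated cells, against 5351 to 12094 in lung, and 4 of the 5 measured markers stayed under the low-intensity limit on every array of both cell groups. Proliferation markers ran the other way, at 5987 to 13142 in antibody-treated and 9149 to 12474 in untreated cells, against 238 to 1090 in lung. Alveolar type 2 markers summed to 65.6 to 108 in antibody-treated and 51.9 to 68.7 in untreated cells, against 35241 to 50695 in lung, so the sorted cells hardly carried these surfactant-cell transcripts. The part of any of these in the results was not tested. The lung arrays labelled male 3 and male 4 carried 1512 and 1583 intensity units of the X-inactivation RNA Xist and 8.27 and 9.46 of the Y-linked gene Uty, whereas the other male-labelled lungs held 12.7 to 24.0 of Xist and 722 to 1253 of Uty. Without both arrays no member's change moved by more than 0.066 (log2), and the same number, 4 of 9, was called in each cell group. Antibody-treated arrays held 1758 to 2274 of Xist and 7.17 to 10.9 of Uty, and untreated arrays 2082 to 2443 and 4.24 to 12.1. A change against male-labelled lung alone thus also sets samples with high Xist against lungs that mostly lack it.

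Against lung, family members lay on both sides: some were lower, Bad was higher, and others were not called. Changes are differences in log2(intensity + 16) after quantile normalization, estimated over all arrays with limma, and a gene was called when its limma adjusted p was under 0.05 and its change at least 2-fold. Each gene is represented by its brightest single-gene probe set, and sets whose names end in _x_at were taken only where there was no other. Of the 9 genes, 4 were called in antibody-treated cells, with 1 higher and 3 lower, where 40.6% of 15125 genes were called in all (16.9% higher, 23.7% lower). The count was again 4 in untreated cells, 1 higher and 3 lower, where 41.1% of 15184 genes were called (17.5% higher, 23.5% lower), so the share of members called lay close to that of all genes in both cell groups. Pmaip1, Bcl2l11 and Mcl1 were lower and Bad was higher in both, and Pmaip1 was tested only because of its lung values. Arrays did not overlap with lung for 6 of the 9 genes in either cell group, beside 61.5% and 64.3% of all genes. The median change of the 9 genes was −0.67 in antibody-treated and −0.55 in untreated cells, beside −0.01 and 0.01 over all genes tested. All the probe sets of the family, 24 of 29 tested, gave 10 calls in each cell group, 2 higher and 8 lower. Of the 8 lower sets, 5 were sets of the single gene Mcl1 in each cell group. Over all probe sets 39.3% were called in antibody-treated cells (19.8% higher, 19.6% lower) and 39.8% in untreated cells (20.1% higher, 19.6% lower). The cell groups share the same lung arrays, so their agreement is not independent.

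**Figure D1:**
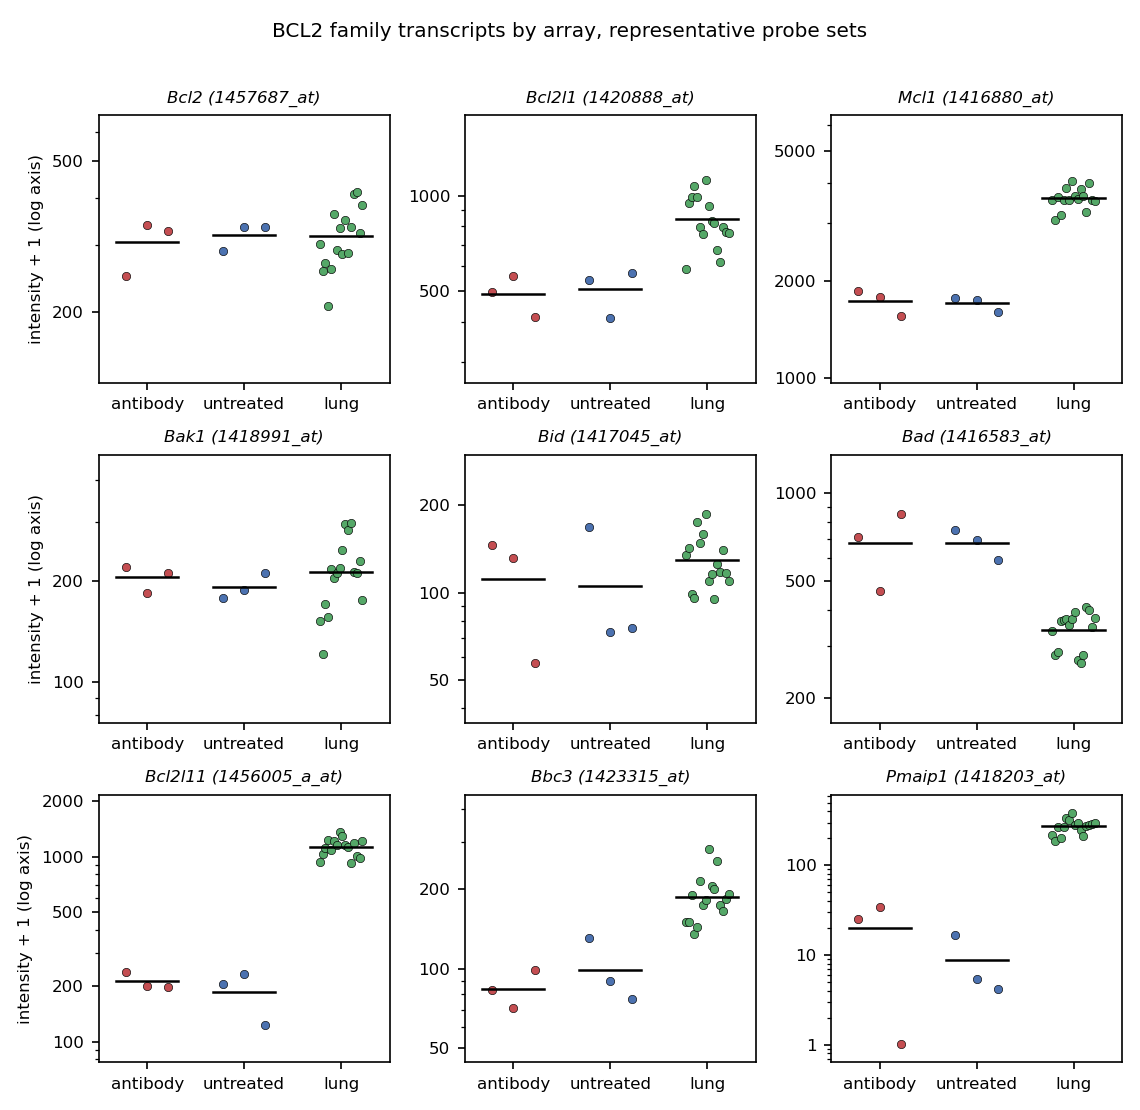
Intensity of each family gene on every array, by its representative probe set; the vertical axis is intensity + 1 on a log scale with its own range in each panel, each point is 1 array, and the black bar is the group mean of antibody-treated cells (3 arrays), untreated cells (3 arrays) or lung (16 arrays). The Pmaip1, Bcl2l11 and Mcl1 points of the cells lie below all lung points, and those of Bad above. The cell points of Bcl2 and Bak1 lie within the lung range, and those of Bid lie within or below it.

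Among the guards, Mcl1 was lower in the sorted cells and Bcl2 was not called by its representative probe set. Mcl1, a short-lived guard whose protein turns over quickly, gave 1856, 1784 and 1553 intensity units (probe set 1416880_at) in antibody-treated cells and 1761, 1746 and 1596 in untreated cells, against a lowest of 3068, a median of 3550 and a highest of 4038 in lung. Every cell array lay below every lung array. The change was −1.08 ± 0.07 (SE; limma adjusted p = 1.13e-12) in antibody-treated and −1.13 ± 0.07 (limma adjusted p = 4.2e-13) in untreated cells. The size is near the 2-fold limit: it was −0.98 with antibody replicate 3 left out, and under median centring −0.77 in antibody-treated and −0.80 in untreated cells. Of the 6 Mcl1 probe sets, 5 were called lower in both cell groups, from −1.05 to −1.41 in antibody-treated cells, while probe set 1416881_at overlapped lung at −0.02 in antibody-treated and 0.06 in untreated cells.

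Bcl2, the founding guard, gave 248, 339 and 326 units (probe set 1457687_at) in antibody-treated cells and 289, 333 and 335 in untreated cells, against 207, 311 and 414 as the lowest, median and highest of lung. The groups overlapped throughout. Its change was 0.12 ± 0.11 in antibody-treated cells (95% interval −0.11 to 0.35, limma adjusted p = 0.334) and 0.19 ± 0.11 in untreated cells (−0.04 to 0.42, limma adjusted p = 0.121). The other Bcl2 probe sets disagreed with each other. The set 1437122_at averaged 68.2 ± 8.0 units in antibody-treated and 75.5 ± 12.7 in untreated cells (SD, n = 3 each), against 151 ± 31.6 in lung (SD, n = 16), a change of −0.67 and −0.54 that missed 2-fold. The set 1440770_at was called higher by 1.02 and 1.11, but its lung values, 1.44 to 23.7, sat under the low-intensity limit on all 16 arrays. The sets 1422938_at (0.26 and 0.33) and 1443837_x_at (0.20 and 0.41) overlapped lung and missed 2-fold. Their limma adjusted p was 0.0448 and 0.145 in antibody-treated and 0.0125 and 0.0044 in untreated cells. Only 6 of 16 lung arrays passed the low-intensity limit for 1422938_at. Against male-labelled lung alone, 1457687_at changed by 0.26 and 0.33, and against female-labelled lung alone by −0.02 and 0.05.

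Bcl2l1, whose main product BCL-XL guards many long-lived cells, gave 498, 558 and 414 units (probe set 1420888_at) in antibody-treated cells and 543, 412 and 569 in untreated cells, against 587, 809 and 1121 as the lowest, median and highest of lung. All cell arrays lay below all lung arrays, the nearest ones by little. The change, −0.67 ± 0.16 in antibody-treated (limma adjusted p = 4.84e-04) and −0.64 ± 0.16 in untreated cells (limma adjusted p = 7.61e-04), did not reach 2-fold, so the gene was not called. A weaker probe set, 1420887_a_at, averaged 17.7 ± 7.0 units in antibody-treated and 14.9 ± 4.6 in untreated cells, against 114 ± 31.5 in lung, and was called lower, at −1.71 and −1.84 on the log2 scale. On 0 of the 6 cell arrays did it pass the low-intensity limit, so it was tested only because of lung and the size rests on the constant added.

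The effector Bak1, one of the pair of genes whose proteins open the mitochondrial outer membrane, was not called against lung. It gave 219, 184 and 211 units (probe set 1418991_at) in antibody-treated cells and 177, 187 and 211 in untreated cells, against 121, 211 and 295 as the lowest, median and highest of lung. The cell arrays lay inside the lung range. The change of 0.21 ± 0.14 (95% interval −0.08 to 0.49, limma adjusted p = 0.177) in antibody-treated and 0.12 ± 0.14 (−0.16 to 0.41, limma adjusted p = 0.412) in untreated cells was not called, and its sign turned without normalization, at −0.01 and −0.10. Lung labelled male averaged 180 units and lung labelled female 243. The gap lay in replicates 1 to 4, at 151, 121, 170 and 156 in male-labelled and 246, 294, 282 and 295 in female-labelled lung. Replicates 5 to 8 read 216, 203, 210 and 217 in male-labelled and 212, 210, 228 and 174 in female-labelled lung. The cause of this split was not tested. Against male-labelled lung alone the change was 0.41 (limma adjusted p = 0.016) in antibody-treated and 0.33 (limma adjusted p = 0.0485) in untreated cells. Against female-labelled lung alone it was 0.002 and −0.08.

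The BH3-only genes held the largest changes. Pmaip1, which encodes NOXA, a BH3-only protein that binds MCL1 in particular, gave 24.5, 33.0 and 0.016 units (probe set 1418203_at) in antibody-treated cells and 15.9, 4.44 and 3.22 in untreated cells, against 185, 275 and 384 as the lowest, median and highest of lung. Every lung lay at least several-fold above every cell array. The low-intensity limit was passed on 1 of the 3 antibody-treated, 0 of the 3 untreated and all 16 lung arrays. The gene was thus tested only because of its lung values, and its p-values rest on that choice. The gene fell, changing by −2.98 ± 0.23 on the log2 scale (limma adjusted p = 1.71e-11) in antibody-treated and −3.47 ± 0.23 (limma adjusted p = 9.4e-13) in untreated cells. Since the cell values sit near background, the size rests on the constant added before the log: it ran from −4.49 to −1.91 in antibody-treated and from −4.91 to −2.14 in untreated cells over the settings tried.

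Bcl2l11, which encodes BIM, a broad-acting BH3-only protein central to the death of blood cells in mice, gave 237, 199 and 195 units (probe set 1456005_a_at) in antibody-treated cells and 203, 230 and 122 in untreated cells, against 917, 1137 and 1349 as the lowest, median and highest of lung. The cell and lung ranges were far apart. It fell, changing by −2.18 ± 0.12 on the log2 scale (limma adjusted p = 3.46e-14) in antibody-treated and −2.37 ± 0.12 (limma adjusted p = 6.47e-15) in untreated cells. The size differed between probe sets. The sets 1435448_at, at −0.77 and −0.86, and 1435449_at, at −0.41 and −0.59, had limma adjusted p values under 0.05 without reaching 2-fold, and 1456006_at, at 0.18 and 0.10, was not called.

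Bbc3, which encodes PUMA, a p53-induced BH3-only protein, gave 81.7, 69.9 and 97.4 units (probe set 1423315_at) in antibody-treated cells and 130, 88.7 and 76.0 in untreated cells, against 134, 181 and 282 as the lowest, median and highest of lung. All cell arrays lay below the lung range, untreated replicate 1 by little. The change of −0.74 ± 0.15 in antibody-treated (limma adjusted p = 7.71e-05) and −0.55 ± 0.15 in untreated cells (limma adjusted p = 0.00169) missed 2-fold, and without normalization the antibody-treated value was −1.01 and was called.

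Bad was the member called higher. BAD, a BH3-only protein restrained by phosphorylation downstream of growth factors, was represented by 710, 463 and 846 units (probe set 1416583_at) in antibody-treated cells and 747, 690 and 592 in untreated cells, against 262, 358 and 408 as the lowest, median and highest of lung. Each cell array exceeded all lung arrays, and antibody replicate 2 was the closest to them. The change was 1.01 ± 0.13 (limma adjusted p = 2.3e-07) in antibody-treated and 1.03 ± 0.13 (limma adjusted p = 1.68e-07) in untreated cells, just above 2-fold. It fell short of 2-fold with antibody replicate 3 left out (0.85), with antibody replicate 1 left out (0.96) and with untreated replicate 1 left out (0.99), and without normalization (0.92 in antibody-treated, 0.96 in untreated cells). The second Bad probe set, 1416582_a_at, changed by 0.62 and 0.54, under 2-fold.

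Bid, whose protein links death receptors to mitochondria once caspase-8 cuts it, gave 145, 131 and 56.2 units (probe set 1417045_at) in antibody-treated cells and 167, 72.2 and 74.9 in untreated cells, against 94.4, 121 and 186 as the lowest, median and highest of lung. Both cell groups spread widely and overlapped lung, with antibody replicate 3 and untreated replicates 2 and 3 below the lowest lung. Its change was 0.03 ± 0.19 (95% interval −0.37 to 0.43, limma adjusted p = 0.898) in antibody-treated and −0.04 ± 0.19 (−0.44 to 0.36, limma adjusted p = 0.857) in untreated cells.

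**Figure D2:**
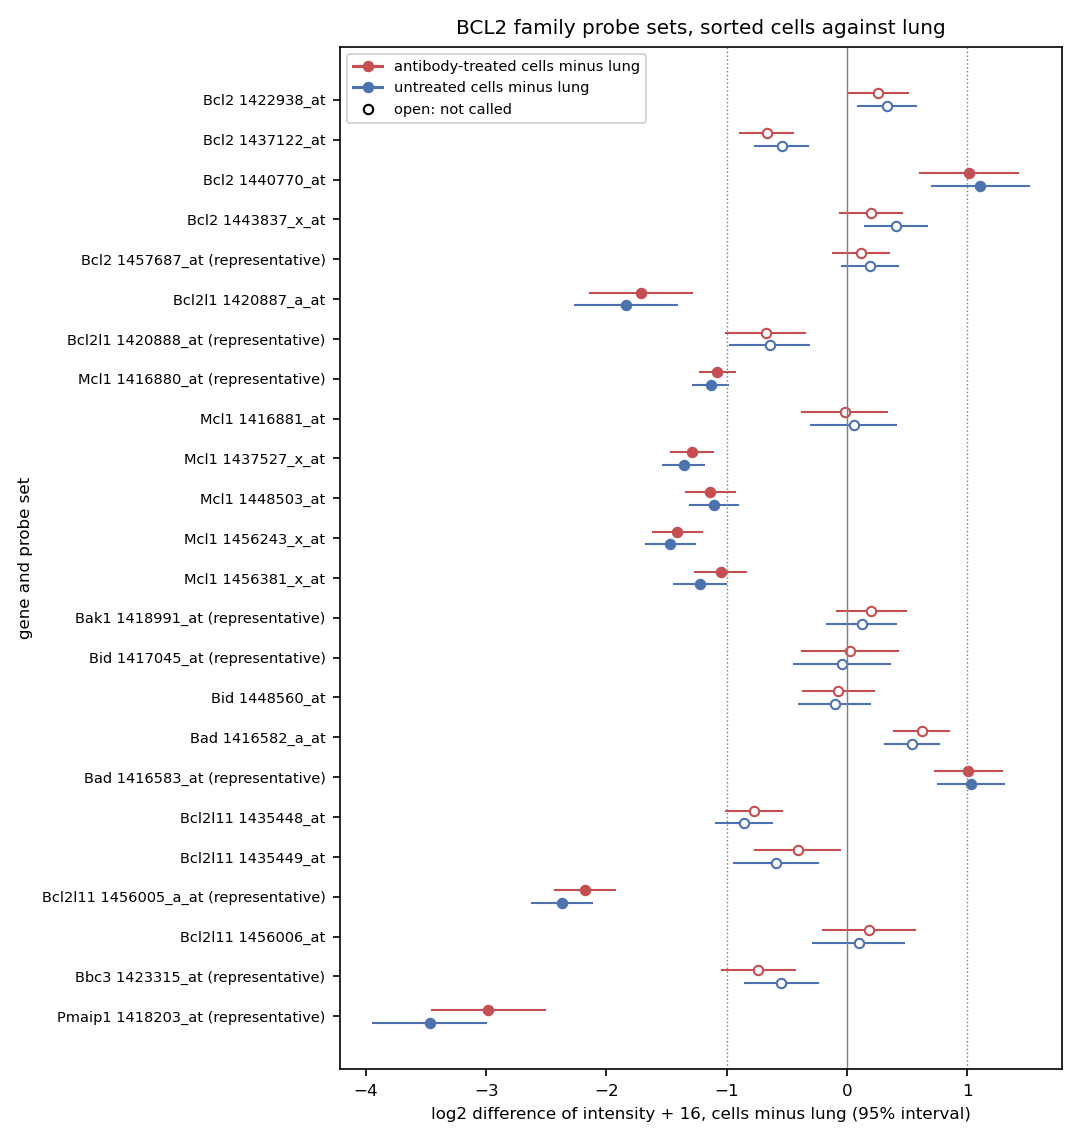
Difference of every tested family probe set from lung, on the log2(intensity + 16) scale with 95% intervals, in antibody-treated and in untreated cells; filled points were called, and the dotted lines mark 2-fold in either direction. Pmaip1 (−2.98 and −3.47) and the representative Bcl2l11 set (−2.18 and −2.37) lie farthest left, and the probe sets of Bcl2 and of Bcl2l11 spread over both sides of 0.

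Promoter windows of the family were read from the RefSeq table of build GRCm38.p6, 250 bases before to 50 after each start, which gave 15 windows for 9 of the 10 genes. A motif search covered both strands of the 14 windows of the 8 genes that were measured, Pmaip1 aside. The FOXO motif GTAAACA, bound by transcription factors that switch on Bcl2l11 in starved cells, was in 2 of the 14 windows (14.3%), 1 of Bcl2l11 and 1 of Bbc3, beside 3.65% of all 32851 windows. The E-box CACGTG, the core motif of Myc and related factors, was in 1 window (7.14%), of Bbc3, beside 7.15% of all. The AP-1 motif TGACTCA was in 0 windows, beside 5.2%, and the GC box GGGCGG was in 9 (64.3%), beside 35.7%. Windows of Bbc3 overlap each other, and a match is a string of letters, not a bound site. Any link between the motifs and the changes against lung was not tested. Printed are the 2 windows with the FOXO motif, the window of Mcl1, the lower guard, and 1 window of Bad, the gene called higher. The other windows of Bcl2l11 and Bbc3 lacked the FOXO motif, as did that of Mcl1. Capitals mark the motifs found, as written or as the reverse complement (TGTTTAC for FOXO, CCGCCC for the GC box). The Bcl2l11 window is chr2:128125788-128126087 (+), the Bbc3 window chr7:16310011-16310310 (+), the Mcl1 window chr3:95658471-95658770 (+) and the Bad window chr19:6941611-6941910 (+).
Bcl2l11: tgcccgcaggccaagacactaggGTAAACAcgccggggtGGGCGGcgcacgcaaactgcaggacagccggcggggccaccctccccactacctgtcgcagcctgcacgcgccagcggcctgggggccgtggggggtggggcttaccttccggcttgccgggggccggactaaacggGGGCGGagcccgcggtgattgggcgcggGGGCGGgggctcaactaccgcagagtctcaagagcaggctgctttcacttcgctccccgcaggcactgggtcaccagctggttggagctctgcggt
Bbc3: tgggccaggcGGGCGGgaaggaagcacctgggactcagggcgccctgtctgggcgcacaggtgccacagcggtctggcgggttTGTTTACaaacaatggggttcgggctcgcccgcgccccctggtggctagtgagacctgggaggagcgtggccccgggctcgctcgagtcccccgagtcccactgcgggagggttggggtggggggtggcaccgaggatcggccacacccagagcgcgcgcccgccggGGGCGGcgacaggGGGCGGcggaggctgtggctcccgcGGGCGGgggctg
Mcl1: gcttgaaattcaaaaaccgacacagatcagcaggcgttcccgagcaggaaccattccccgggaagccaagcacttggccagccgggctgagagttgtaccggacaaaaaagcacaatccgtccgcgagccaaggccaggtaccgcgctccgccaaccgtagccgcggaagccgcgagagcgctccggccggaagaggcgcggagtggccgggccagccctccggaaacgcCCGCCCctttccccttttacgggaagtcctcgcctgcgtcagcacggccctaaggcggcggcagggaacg
Bad: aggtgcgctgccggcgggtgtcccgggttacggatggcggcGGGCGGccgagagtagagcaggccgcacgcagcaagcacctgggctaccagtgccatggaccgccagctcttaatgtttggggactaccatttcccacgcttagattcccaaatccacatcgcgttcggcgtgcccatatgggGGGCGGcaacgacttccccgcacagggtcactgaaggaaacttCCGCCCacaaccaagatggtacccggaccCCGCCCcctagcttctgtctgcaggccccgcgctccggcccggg

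Antibody-treated and untreated cells, both of the sorted fraction, were compared directly on their 6 arrays. No group received a control antibody, so an effect through EpCAM and one of antibody exposure in general cannot be told apart. None of the 8 testable members was called (limma adjusted p = 1 for each), where 0.0157% of 12722 genes were called, and 0 had an unadjusted p under 0.05, beside 0.715% of all genes. The share of 0.715% is itself below what the 0.05 level alone would give, so 0 among 8 members says little. The differences of these 8 ran from −0.19 (Bbc3) to 0.19 (Bcl2l11). Arrays of the groups overlapped for every member, beside 3.29% of all genes whose groups did not. The intervals bound the size of any difference: Mcl1 differed by 0.06 (95% interval −0.23 to 0.34), Bcl2 by −0.07 (−0.45 to 0.31), Bcl2l1 by −0.03 (−0.43 to 0.37) and Bad by −0.02 (−0.47 to 0.43). The widest interval was that of Bid, −0.71 to 0.85, so a shift of that gene approaching 2-fold could not be seen with 3 arrays a group. Over all 23 testable family probe sets, 0 were called, beside 0.0109% of all probe sets. Pmaip1 did not pass the low-intensity limit in enough cell arrays to be tested. A p that misses the threshold does not show that the members did not differ.

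**Figure D3:**
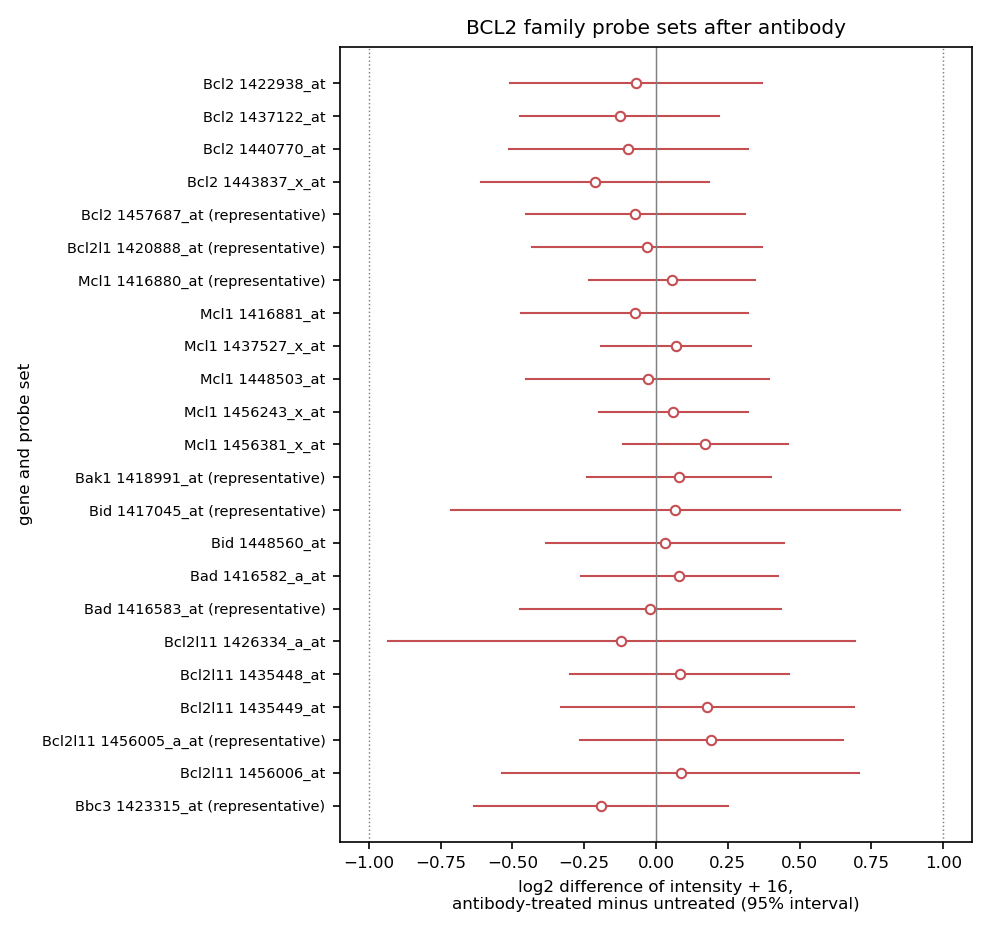
Difference between antibody-treated and untreated cells for each testable family probe set, on the log2(intensity + 16) scale with 95% intervals (3 arrays a group); the dotted lines mark 2-fold. All the representative values lie between −0.19 and 0.19, and each interval covers 0.

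Genes that act beside the family were examined as 8 lists, each gene by its representative probe set. In each list, 0 members were called between antibody-treated and untreated cells. Changes against lung are given below first for antibody-treated and then for untreated cells, over genes that were tested; the medians over all genes were −0.01 and 0.01. Over all genes tested, 16.9% were called higher and 23.7% lower in antibody-treated cells, and 17.5% and 23.5% in untreated cells; the counts below stand beside these shares and were not tested against them. Standard errors of the called list genes lay between 0.087 and 0.31 (log2), and their limma adjusted p was at most 2.5e-05. List genes without a probe set of their own were not analysed here. Bik, Casp1, Tnfsf10 and Trp73 were under the low-intensity limit on all 6 cell arrays, and Cdkn2a and Tnfrsf10b on all 16 lung arrays. These genes were thus tested only because of the other side, and the sizes of their changes rest on the constant added. The same holds in part for Perp, above the limit on 2 of 3 antibody-treated and 0 of 3 untreated arrays, and for Eda2r and Pidd1, above it on 3 and 1 of the 16 lung arrays. It also holds in part for Naip5, above the limit on 1 of 3 antibody-treated and 0 of 3 untreated arrays. Casp4 and Tnfrsf21 were above it on 2 of 3 arrays in each cell group. Of 9 other BCL2 relatives, 1 rose and 2 fell in both, with medians of 0.30 and 0.28. Bok, an effector-like member, averaged 958 ± 136 units in antibody-treated and 1016 ± 16.3 in untreated cells, against 170 ± 36.8 in lung, a rise of 2.50 and 2.56. The BH3-only genes Bik (−3.23 and −3.31) and Bmf (−2.41 and −2.43) fell.

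Of 10 genes for mitochondrial release and the apoptosome, 5 rose and 0 fell in both cell groups, with medians of 1.05 and 1.08, and the other 5 were not called. The largest rises were those of Htra2, a released protease, at 1.64 and 1.60; Vdac1, an outer-membrane channel, at 1.43 and 1.52; Apaf1, the scaffold of the apoptosome, at 1.38 and 1.36; and Aifm1, a flavoprotein of the intermembrane space, at 1.25 and 1.33. Apaf1 averaged 430 ± 20.0 units in antibody-treated and 426 ± 63.9 in untreated cells, against 174 ± 18.0 in lung. Of 7 caspases, 0 rose and 2 fell in both (medians −0.43 and −0.42), the inflammatory caspases Casp1 (−3.32 and −3.36) and Casp4 (−1.71 and −2.04). Both are genes of macrophages in mice, whose marker sum was 459 to 698 in antibody-treated and 477 to 741 in untreated cells, against 14250 to 23261 in lung; its part in the result was not tested.

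Of 8 inhibitor-of-apoptosis genes, 1 rose and 2 fell in both cell groups, with medians of −0.32 and −0.42. Birc5, which encodes survivin, also serves cell division and stands among the proliferation markers above, rose by 4.79 and 4.94. Xiap, the caspase blocker (−1.50 and −1.53), and Birc3 (−1.44 and −1.52) fell. Of 12 death receptor genes, 1 rose and 4 fell in both, with medians of −0.57 and −0.56. The ligand gene Tnfsf10 (−4.14 and −4.61), the receptor gene Tnfrsf21 (−2.69 and −2.86) and the caspase-8 inhibitor Cflar (−1.23 and −1.26) were among those that fell, and the TRAIL receptor gene Tnfrsf10b rose (1.70 and 1.68).

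Of 18 genes linked to p53, which are targets, regulators and the relatives Trp63 and Trp73, 8 rose in both groups and 2 fell in both. The medians were 0.79 and 0.87. Trp53, which encodes p53, was not analysed here. In antibody-treated cells 7 of the 18 were not called, and in untreated cells 8. Among these, named after their values were seen, were the p53 targets Cdkn1a (0.44 and 0.33) and Mdm2 (0.92 and 0.93). Cdkn2a, the Ink4a/Arf locus that restrains MDM2, averaged 735 ± 218 units in antibody-treated and 931 ± 426 in untreated cells, against 5.56 ± 4.76 in lung, with changes of 5.17 and 5.39. Eda2r, a p53-induced receptor gene, rose by 4.15 and 3.92 and Pidd1, a scaffold induced by p53, by 2.03 and 2.14. Perp, a p53 target of epithelia (−3.18 and −3.44), and the relative Trp73 (−1.91 and −1.99) fell. Of 12 genes that regulate BH3-only genes, 7 rose in both and 1 fell in both, with medians of 1.37 and 1.36. Trib3 (4.28 and 4.29), Myc (3.54 and 3.46) and Atf3 (2.42 and 2.46) rose, and Foxo1, a transcription factor that induces Bcl2l11, fell (−2.36 and −2.48). Whether the Myc probe set also reads the c-myc transgene was not tested. Of 10 genes for MCL1 turnover and its chaperones, 1 rose and 2 fell in both (medians −0.29 and −0.34). Ywhaz, of a family of phosphoprotein-binding adaptors, rose (1.32 and 1.28), and the ubiquitin-ligase subunit genes Fbxw7 (−1.44 and −1.51) and Btrc (−1.28 and −1.20) fell. Named after their values were seen, 3 list genes crossed the 2-fold limit in 1 cell group: Sesn1 (−1.03 and −0.98) and Foxo3 (−1.04 and −0.89) in antibody-treated and Naip5 (−0.90 and −1.02) in untreated cells, and their differences between the cell groups were not called where tested.

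**Figure D4:**
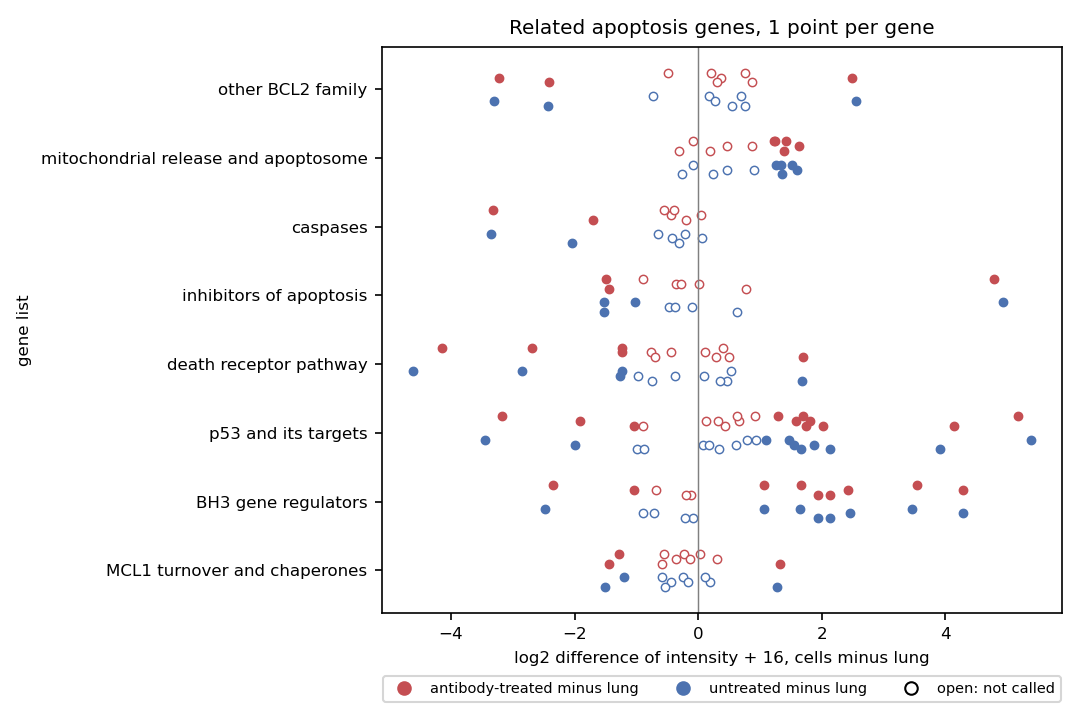
Change of each gene in the 8 related lists against lung, on the log2(intensity + 16) scale, 1 point per gene and cell group; filled points were called. The called genes of mitochondrial release all lie right of 0, and Birc5, Cdkn2a, Eda2r and Trib3 lie farthest right, the places of Cdkn2a and Eda2r resting on lung values near background.

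Across the 16 lungs, Bcl2 varied with an SD of 0.21 (log2), Bcl2l11 with 0.16 and Mcl1 with 0.10. The probe sets most alike to Bcl2 by Pearson correlation over those 16 arrays, out of 15183, were those of Ms4a4b (0.928), Ltb (0.920), Klra7 (0.912), Cr2 (0.885) and C1qtnf2 (0.884). Ltb and Ms4a4b are lymphocyte genes and Cr2 marks B cells. For Mcl1 the most alike were Ctla2b (0.866), Cnot8 (0.865), Draxin (0.858), Pi15 (0.842) and Rsrp1 (0.841), and for Bcl2l11 Kdelr1 (0.786), Abl2 (0.741), Rorb (0.730), 1700003F12Rik (0.726) and Map3k5 (0.718). These are the highest of many correlations over few arrays that share a tissue, and they are given as a description. Between probe sets of 1 gene the correlation with the representative over the same lungs was as low as 0.208 for Bcl2, 0.219 for Mcl1 and 0.206 for Bcl2l11, and at most 0.869, 0.819 and 0.74.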

How the data were processed

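Total RNA was measured on 22 single-colour Affymetrix arrays. The deposited values are probe set intensities on a linear scale, and the submitters' processing notes name PLIER as the tool; its version and settings are not given in the sources used here. The 64 control probe sets were left out. Symbols came from the platform annotation (34945 probe sets with 1 symbol, 932 with several, 9160 not listed), updated through Entrez IDs. To the intensities 16 was added, log2 was taken and the log2 values were quantile normalized. Probe sets above their array's 40th percentile (the low-intensity limit) on at least 3 compared arrays were tested with limma 3.58.1 in R 4.3.3 (lmFit and eBayes with trend), with Benjamini-Hochberg adjustment over all probe sets tested. Each cell group was set against lung, taken as the average of the male-labelled and female-labelled groups, in 1 model of all arrays, and antibody-treated against untreated cells on 6 arrays. The labels call samples biological replicates without saying what separates them, so p-values measure the spread between these samples. No read depth applies to arrays, and their number limits the precision. The code was tested on simulated data. The members and lists, and the rule for naming up to 4 list genes by largest change in antibody-treated cells and 5 genes most alike, were chosen with earlier results of these data known. Alternatives covered normalization, the added constant (1 or 64), the filter, the variance trend, the arrays used and each replicate left out.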

Additional observations from a re-analysis of the deposited data

Results flagged for a closer look

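In 58 sets of values, each 1 family probe set in the 8 male-labelled or the 8 female-labelled lungs, 2 had an end sample far from its neighbour by Dixon's gap ratio, and chance flags about 1 in 20 such groups. Bad probe set 1416582_a_at read 307 in female lung 6, with the nearest lung at 265 and the other end at 234. Bcl2l11 probe set 1435449_at read 252 in female lung 1, with the nearest at 182 and the other end at 128. Neither was the representative probe set of its gene.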

How the results depend on the processing

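With 1 cell replicate left out in turn, 2 to 4 of 9 family genes were called in antibody-treated cells against lung, 3 to 4 in untreated cells against lung, and 0 to 0 between antibody-treated and untreated cells. The count of 2 came without antibody replicate 3, where Mcl1 (−0.98) and Bad (0.85) fell short of 2-fold. Against lung, 3 genes were called with median centring or a constant of 64 in either cell group, and 3 in untreated cells without normalization; the other settings gave 4. Mcl1 lost its call with median centring, Bad without normalization and with a constant of 64 (0.92 in antibody-treated, 0.94 in untreated cells). No called value changed sign. The median over all genes in antibody-treated and untreated cells was −0.18 and −0.15 without normalization and 0.09 and 0.12 with median centring, and the share of calls that were higher was 34.3% and 34.9% or 47.6% and 48.4%, beside 41.6% and 42.7% as reported.

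Antibody-treated and untreated samples share replicate numbers. The correlations of same-numbered deviations were 0.0381, −0.173 and −0.0108, and 1 of 3 samples was most like its own number. These values gave no sign that the numbers pair the samples, but with 3 arrays a group they cannot exclude it. With the replicate number as a block, 0 members were called. PLIER values near background, such as those of Pmaip1 in cells, limit the size that can be given. The cause of these shifts was not tested.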
